A study of Mus musculus with 8 samples.

Results

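The genes described are 38 genes that are mostly expressed by macrophages and other leukocytes, out of 18193 named genes read in cultures of mouse embryonic fibroblasts. They were chosen by name, with earlier results of these data known and with Csf1r and Lyz2 as the markers of macrophages. Each was read from 1 probe set, the one with the highest mean value across 8 arrays. By role they comprise 19 surface receptors, 4 complement and secreted proteins, 6 lysosomal and antimicrobial proteins and 9 signalling, adaptor and cytoskeletal proteins.

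The cells came from mid-gestation (E14.5) embryos of C57BL/6J mice, either wild type (WT) or lacking Hif-p4h-1 (KO), and were studied in normoxia or hypoxia. Hif-p4h-1, encoded by Egln2, is a prolyl hydroxylase that, with oxygen present, targets the alpha subunits of hypoxia-inducible factor for destruction. The 4 groups were WT in normoxia, KO in normoxia, WT in hypoxia and KO in hypoxia. Each had 2 arrays, 1 of which the labels mark as 2nd, so the arrays form a first and a second set. The sources used here give neither the oxygen level and exposure time nor the passage of the cells and the allele behind the KO. The labels do not state whether arrays of a group stem from separate embryos or cultures, so the spread behind the p-values may be technical. Values are log2 intensities, on which a difference of 1 is a factor of 2. A gene is called changed at a Benjamini-Hochberg adjusted p under 0.05 in a limma fit over all 13647 genes tested, and errors are standard errors of that fit.

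Macrophages enter the embryo from the yolk sac and fetal liver and settle in every tissue, so a fibroblast preparation from whole embryonic tissue can carry them into culture. They survive and divide on colony-stimulating factor 1, which fibroblasts secrete and which acts through the receptor CSF1R. The transcription factor PU.1, encoded by Spi1, binds purine-rich sites near the start of many macrophage genes. Macrophages take up debris and microbes through scavenger and Fc receptors, tag targets with C1q and digest them with lysosomal cathepsins and lysozyme.

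The sites PU.1 is known for are shown in 4 promoters, because these genes hold the longer motif searched. The genes include some that were lower in KO cells, and Vav1, which was level on the probe set used. The promoter sequences run from 250 bases before to 50 bases after the gene start and are from RefSeq on build GRCm38.p6. A promoter was listed for 29 of the 38 genes. The letters GAGGAAGT were searched on both strands, so ACTTCCTC is the same motif on the other strand. Capitals mark the motif.
Ctss, chr3:95526536-95526835, + strand: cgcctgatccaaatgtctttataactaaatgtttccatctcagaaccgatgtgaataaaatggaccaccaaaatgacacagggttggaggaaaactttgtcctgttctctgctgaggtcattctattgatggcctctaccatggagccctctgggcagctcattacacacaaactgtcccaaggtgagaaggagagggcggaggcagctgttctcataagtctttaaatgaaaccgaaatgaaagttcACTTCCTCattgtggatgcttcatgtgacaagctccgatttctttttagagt
Pf4, chr5:90772185-90772484, + strand: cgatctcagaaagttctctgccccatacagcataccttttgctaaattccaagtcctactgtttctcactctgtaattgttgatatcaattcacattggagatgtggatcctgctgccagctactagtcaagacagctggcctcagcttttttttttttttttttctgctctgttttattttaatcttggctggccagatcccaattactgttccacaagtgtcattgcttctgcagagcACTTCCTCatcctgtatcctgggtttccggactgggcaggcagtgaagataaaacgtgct
C1qc, chr4:136892865-136893164, - strand: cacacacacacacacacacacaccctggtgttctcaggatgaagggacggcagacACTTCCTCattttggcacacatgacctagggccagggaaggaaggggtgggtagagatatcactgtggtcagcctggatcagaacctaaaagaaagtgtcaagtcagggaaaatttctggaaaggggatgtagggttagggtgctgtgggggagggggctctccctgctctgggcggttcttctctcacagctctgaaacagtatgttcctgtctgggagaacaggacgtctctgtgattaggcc
Vav1, chr17:57278850-57279149, + strand: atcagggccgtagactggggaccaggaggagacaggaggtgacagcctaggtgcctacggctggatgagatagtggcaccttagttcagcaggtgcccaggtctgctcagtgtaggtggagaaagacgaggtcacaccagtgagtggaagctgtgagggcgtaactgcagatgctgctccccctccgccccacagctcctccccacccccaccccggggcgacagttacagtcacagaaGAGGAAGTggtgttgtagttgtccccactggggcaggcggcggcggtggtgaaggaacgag
The motif starts 2 bases before the gene start in Ctss, 10 in Pf4, 11 in Vav1 and 195 in C1qc. It stood in 5 of the 29 promoters (17.2%; Cd53 is the fifth gene) and in 3.69% of the promoters of 27025 genes. The shorter core GAGGAA, which the longer motif contains, stood in 18 of the 29 promoters (62.1%) and in 31.3% of all. A match is a description of the letters and not a measured binding site.

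The cultures read as fibroblasts, with a macrophage signal beside them. The fibroblast genes Col1a2 and Vim read 14.19 to 14.56 and 14.33 to 14.45 on the 8 arrays, near the highest value of any probe set (14.71). Csf1r read 6.78 to 9.84 and Lyz2 7.33 to 10.16, against array medians of 5.01 to 5.12. Egln2 read 8.84 and 9.07 in normoxic WT, 8.95 and 9.13 in hypoxic WT, 8.0 and 8.34 in normoxic KO and 8.66 and 8.85 in hypoxic KO, first set first. The KO arrays were lower within each set and condition, with a mean difference of -0.54 (adjusted p = 0.0225). Signal remained, and the position of the probe set relative to the deletion is unknown here, so this checks the labels only in part.

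**Figure D1:**
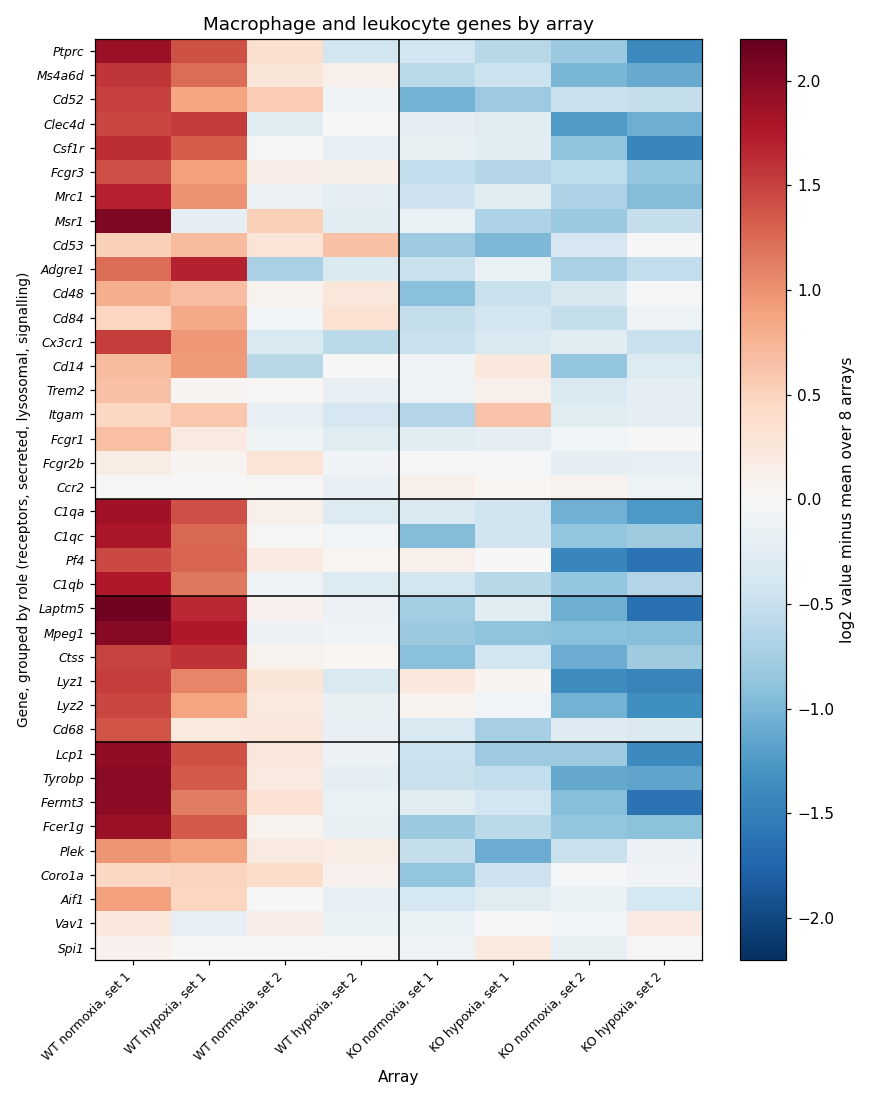
Heat map of the 38 genes (rows, grouped by role with black lines between the groups) on the 8 arrays (columns), coloured by log2 value minus the gene's own mean over 8 arrays. The first-set WT columns are reddest, and 34 of the 38 genes peak on one of them, while 33 are lowest on a KO array.

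The macrophage and leukocyte genes were lower in KO than in WT cultures, on nearly every probe set used and in both oxygen conditions. Of the 38 genes, 30 read lower in KO than in WT in all 4 pairs of arrays of the same set and condition, where 10.7% of all genes tested did so. In 21 of the 38, every WT array lay above every KO array, against 0.799% of all genes tested. The gap was very small for some of the 21, as for C1qa (5.81 against 5.8) and Ptprc (4.52 against 4.5). The 38 genes were chosen with earlier results of these data known, so contrasts with all genes tested, here and below, are descriptive only. The mean log2 value over the 38 genes was 7.07, 6.71, 5.89 and 5.71 on the WT arrays (normoxia and hypoxia of the first set, then of the second). On the KO arrays it was 5.39, 5.46, 5.16 and 5.12 in the same order, so the means do not overlap between genotypes. In bulk cultures, fewer macrophages and less of these transcripts per macrophage cannot be told apart.

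The KO difference was wider in the first set. In that set its median over the 38 genes was -1.72 in normoxia and -1.42 in hypoxia. The second set gave medians of -0.73 and -0.55, and the median of all genes tested lay between -0.04 and 0.00. In 7 of the 38 genes KO was lower by over 1 in all 4 pairs, a threshold set with the values in view, against 0.0586% of all genes tested. In the fit over both oxygen conditions, 14 of the 38 genes were called lower and none higher, and 3 (Cd48, Itgam and Aif1) were too dim to be tested. Among all genes tested, 0.198% were called lower and 0.0586% higher. The lower ones are 27 genes, so the 14 are 51.9% of them. The others of the 27 are Gpm6a, Ccr1, Il33, Pdgfra, Clec4n, Itga6, Gata6, Ubash3b, Egr2, Dcn, S1pr3, Fbn2 and Egln2 itself. Ccr1 (-1.24), a chemokine receptor, and Clec4n (-0.70), a C-type lectin receptor, are themselves leukocyte genes outside the 38.

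These 14 calls, among which Lyz1 and Lyz2 may read the same signal (given below), were sensitive to single libraries. Leaving out 1 array at a time left between 3 and 17 of the 38 genes called. It was 3 without any 1 of first-set WT in normoxia, first-set WT in hypoxia, first-set KO in hypoxia, second-set WT in hypoxia or second-set KO in hypoxia, and 7 without first-set KO in normoxia. Lyz1, Lyz2 and Pf4 were called in 8 of 8 such fits, and each of the other 11 in 1 to 3. No gene was called without the set in the fit, as a random block, or when the normoxic and hypoxic arrays of a genotype and set were averaged into 1 value. That last fit treats the 2 arrays as 1 preparation, which the labels neither say nor deny. Second-minus-first set differences correlated at 0.85 between normoxic and hypoxic WT and at 0.83 between normoxic and hypoxic KO. Between a WT and a KO group they correlated at 0.71 to 0.77. Whether the 2 arrays share a preparation was not tested. If they do, the counts over same-set pairs and the 14 calls treat related arrays as separate. The genotype by set fit and the fits of each set alone, given below, would then do so too.

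Among the surface receptors, 5 of 19 were called lower in KO, and 13 of 19 were lower in all 4 pairs. Csf1r, the receptor for colony-stimulating factor 1, read 9.84 and 9.54 on the first-set WT arrays (normoxia, then hypoxia), 8.16 and 8.02 on the second-set WT arrays, 8.04 and 7.96 on the first-set KO arrays and 7.32 and 6.78 on the second-set KO arrays. The second-set WT arrays thus lay at the level of the first-set KO arrays, so the genotypes overlapped across sets while each set held the difference. The fitted difference of Csf1r was -1.36 ± 0.14 (2.58-fold, adjusted p = 0.0137). A further probe set of Csf1r, with a mean of 7.10, was lower in 4 of 4 pairs with a mean difference of -0.81, and the other one, with a mean of 5.52, in 3 of 4 with -0.22.

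Ptprc encodes CD45, the phosphatase on all nucleated blood cells. It read 6.82 and 6.33 in first-set WT, 5.28 and 4.52 in second-set WT, 4.5 and 4.31 in first-set KO and 4.1 and 3.53 in second-set KO (normoxia first in each pair). The KO arrays were below all WT arrays, though only by 4.5 against 4.52 at the closest, and the fitted difference was -1.63 ± 0.22 (3.09-fold, adjusted p = 0.0315). Ms4a6d, a membrane protein of the CD20 family, read 6.66, 6.32, 5.36 and 5.19 in WT and 4.49, 4.61, 4.08 and 3.98 in KO, in the array order used for the means above. Its difference of -1.59 ± 0.16 (3.02-fold, adjusted p = 0.0125) again left no overlap.

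Clec4d, a C-type lectin receptor of myeloid cells, read 6.73, 6.8, 5.02 and 5.25 in WT and 5.04, 5.02, 4.01 and 4.18 in KO. Here the second-set WT arrays lay at the level of the first-set KO arrays, as for Csf1r, with a fitted difference inside the sets (-1.39 ± 0.15, 2.62-fold, adjusted p = 0.0193). Fcgr3, an activating Fc receptor for IgG, read 7.59, 7.07, 6.32 and 6.29 in WT and 5.63, 5.53, 5.61 and 5.3 in KO. Its KO arrays were nearly level while its WT arrays differed by set, and the fitted difference was -1.30 ± 0.19 (2.46-fold, adjusted p = 0.0449).

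The inhibitory Fc receptor Fcgr2b, which many cell types express, stood apart from Fcgr3. It read between 6.83 and 7.33 on the 8 arrays, and its difference of -0.22 ± 0.09 was not called (adjusted p = 0.461). The high-affinity Fc receptor Fcgr1 read 5.31 on the first-set normoxic WT array and 4.37 to 4.84 on the other 7. A dimmer probe set of Fcgr1 gave -0.87 on average and was lower in 3 of 4 pairs, so its probe sets disagree in size.

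Other receptors were lower in KO without being called. Cd52, a small glycoprotein of leukocytes, read 6.66, 6.02, 5.72 and 5.07 in WT and 4.11, 4.36, 4.66 and 4.63 in KO, without overlap (-1.43 ± 0.26, adjusted p = 0.0943). Cd53, a leukocyte tetraspanin, read 6.71 to 7.12 in WT and 5.44 to 6.42 in KO (-1.07 ± 0.18, adjusted p = 0.0851). Mrc1, the mannose receptor, read 6.04, 5.33, 4.21 and 4.12 in WT and 3.38 to 4.07 in KO (-1.18 ± 0.23, adjusted p = 0.117). All its KO arrays lay below the filter of 4.17, which its mean passed only through the WT arrays. For Cd52, Cd53 and Mrc1 the lowest WT array lay above the highest KO array. For Mrc1 that gap was 4.12 against 4.07, both below the filter.

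Adgre1, an adhesion receptor used as a marker of mature macrophages, and Cx3cr1, the fractalkine receptor, had a wide KO difference in first-set arrays and little or none in second-set arrays. Adgre1 read 6.34 and 6.81 in first-set WT and 4.62 and 4.97 in first-set KO, but 4.41 and 4.8 in second-set WT and 4.41 and 4.58 in second-set KO. Cx3cr1 read 6.42 and 5.85 in first-set WT and between 4.3 and 4.66 on the other 6 arrays. Cd14, the lipopolysaccharide co-receptor, read 7.37, 7.62, 6.07 and 6.67 in WT and 6.59, 6.91, 5.82 and 6.38 in KO. Its difference was negative in 4 of 4 pairs, from -0.25 to -0.78, with overlap across sets, and was not called (adjusted p = 0.219).

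Cd84, an adhesion receptor of the SLAM family, read 4.34 to 5.24 in WT and 3.88 to 4.29 in KO (adjusted p = 0.117). Trem2, a lipid-sensing receptor that signals through TYROBP, read 6.17, 5.58, 5.55 and 5.35 in WT and 5.19 to 5.63 in KO (adjusted p = 0.448). Ccr2, the chemokine receptor of inflammatory monocytes, read 4.96 to 5.26 with no pair lower in KO, and its further 3 probe sets had means of 2.86 to 2.96. Cd48, a ligand of the SLAM family, and Itgam, the CD11b integrin chain, fell below the filter, with means of 3.81 and 3.52. Cd48 still read 3.88 to 4.6 in WT and 2.89 to 3.78 in KO.

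The complement and secreted genes were lower in KO in 4 of 4 pairs for all 4 genes. C1qa, C1qb and C1qc encode the chains of C1q, the recognition part of the classical complement pathway, which macrophages are the main source of. C1qa read 7.96, 7.54, 6.23 and 5.81 in WT and 5.8, 5.68, 5.06 and 4.85 in KO, and was called at -1.54 ± 0.19 (2.90-fold, adjusted p = 0.0225). C1qb read 8.64, 8.05, 6.78 and 6.59 in WT and 6.49, 6.27, 6.03 and 6.24 in KO (-1.26 ± 0.27, adjusted p = 0.147). C1qc read 7.05, 6.51, 5.27 and 5.19 in WT and 4.3, 4.81, 4.38 and 4.47 in KO (-1.51 ± 0.27, adjusted p = 0.0962). All 3 chains thus held every WT array above every KO array, though for C1qa only by 5.81 against 5.8. The further 2 probe sets of C1qb gave larger mean differences (-1.81 and -2.06) than the one used.

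Pf4, the chemokine platelet factor 4, is a product of megakaryocytes and also of embryonic and tissue macrophages. It read 8.92, 8.74, 7.64 and 7.5 in WT and 7.58, 7.47, 6.03 and 5.84 in KO. The second-set WT arrays lay at the level of the first-set KO arrays, and the KO difference was much the same in each pair, between -1.27 and -1.66. Pf4 was called in normoxia (-1.48 ± 0.13, adjusted p = 0.0124), in hypoxia (-1.47 ± 0.13, adjusted p = 0.0194) and over both (2.77-fold, adjusted p = 8.29e-04).

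Among the 6 lysosomal and antimicrobial genes, all were lower in KO in 4 of 4 pairs and 4 were called. Lyz2, lysozyme of macrophages and neutrophils, read 10.16, 9.55, 8.9 and 8.52 in WT and 8.77, 8.63, 7.64 and 7.33 in KO. It was called lower in normoxia (-1.33 ± 0.10, adjusted p = 0.0049), in hypoxia (-1.06 ± 0.10, adjusted p = 0.0194) and over both (2.28-fold, adjusted p = 7.31e-04). Lyz1, the Paneth cell lysozyme, is a near-identical copy of Lyz2. Its probe set, of a type whose probes are shared with other transcripts, read 10.86, 10.41, 9.61 and 9.01 in WT and 9.57, 9.4, 7.97 and 7.89 in KO. A probe set of Lyz1 without such sharing in its name read 2.93 to 3.47, so the signal listed as Lyz1 cannot be told apart from that of Lyz2.

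In the per-condition comparisons Lyz1, Lyz2 and Pf4 were the genes called among the 38, where Lyz1 and Lyz2 may read the same signal. Of all genes tested, 0.0293% were called lower in normoxia (0.00733% higher and 0.0366% in either direction) and 0.0293% in hypoxia (none higher). Leaving out 1 array left 0 to 3 of the 38 genes called in normoxia and 0 to 5 in hypoxia. In normoxia none was called without first-set KO in normoxia or second-set WT in normoxia, and 1 without either of the other normoxic arrays. In hypoxia none was called in 7 of the 8 such fits, and 5 were called without second-set KO in normoxia.

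Ctss, cathepsin S, which cuts the invariant chain in antigen-presenting cells, read 9.52, 9.61, 8.1 and 8.07 in WT and 7.11, 7.61, 6.94 and 7.25 in KO. Its difference was -1.60 ± 0.22 (3.03-fold, adjusted p = 0.0396), with every WT array above every KO array. Laptm5, a lysosomal membrane protein of haematopoietic cells, read 8.72, 8.26, 6.69 and 6.47 in WT and 5.83, 6.36, 5.52 and 4.95 in KO. It had the largest called difference of the 38 genes, -1.87 ± 0.24 (3.66-fold, adjusted p = 0.0286). The further 4 probe sets of Laptm5, with lower means, gave mean differences of -0.58, -0.52, -0.32 and 0.08, so the size rests on the probe set used.

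Mpeg1, perforin-2, a pore-forming protein of macrophages, read 8.47, 8.22, 6.34 and 6.39 in WT. In KO it was level at 5.65, 5.58, 5.55 and 5.52, and all WT arrays lay above these. Its difference of -1.78 ± 0.34 was not called (adjusted p = 0.116), with -2.82 and -2.64 in the first set but -0.79 and -0.87 in the second. Cd68, a glycoprotein of macrophage lysosomes, read 7.33, 6.16, 6.21 and 5.77 in WT and 5.62, 5.23, 5.67 and 5.63 in KO (adjusted p = 0.241).

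The lysosome in general did not move with these genes. Of 13 lysosomal genes that fibroblasts also express, such as Lamp2, Ctsa, Ctsd and Psap, none was called by genotype. None was lower in KO in 4 of 4 pairs, against 10.7% of all genes tested. Over both conditions 1 had an unadjusted p under 0.05 in limma, against 1396 of the 13647 genes tested. The median difference of the 13 was 0.03. In the second set 9 of them were called higher, against 25.4% of all genes tested. Ctsd read 9.86 to 11.38 in WT and 10.24 to 11.45 in KO.

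Of the 9 signalling, adaptor and cytoskeletal genes, 3 were called lower in KO and 7 were lower in 4 of 4 pairs. Tyrobp, the adaptor DAP12 that carries the signal of TREM2 and other receptors, read 8.35, 7.71, 6.57 and 6.16 in WT and 5.87, 5.82, 5.24 and 5.2 in KO (-1.67 ± 0.20, 3.17-fold, adjusted p = 0.0225). Fcer1g, the signalling chain shared by Fc receptors, read 8.07, 7.52, 6.26 and 6.01 in WT and 5.36, 5.58, 5.33 and 5.27 in KO (-1.58 ± 0.28, adjusted p = 0.0897). Both adaptors held all WT arrays above all KO arrays.

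Lcp1, the leukocyte actin-bundling protein L-plastin, read 7.54, 6.99, 5.84 and 5.47 in WT and 5.11, 4.79, 4.8 and 4.19 in KO (-1.74 ± 0.22, 3.33-fold, adjusted p = 0.0284). A dimmer probe set of Lcp1 gave -0.66 on average, also lower in 4 of 4 pairs. Fermt3, kindlin-3, which activates integrins in blood cells, read 7.7, 6.87, 6.05 and 5.58 in WT and 5.46, 5.31, 4.79 and 4.11 in KO (-1.63 ± 0.15, 3.10-fold, adjusted p = 0.0111). A second Fermt3 probe set with a mean of 5.39 gave -0.04 on average, so the probe sets of this gene disagree.

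Plek, the protein kinase C substrate pleckstrin, read 5.57 to 6.37 in WT and 4.32 to 5.28 in KO (adjusted p = 0.189). Coro1a, an actin regulator of leukocytes, read 5.37 to 5.77 in WT and 4.42 to 5.23 in KO (adjusted p = 0.229). Both lay apart by genotype on all arrays but missed the threshold. Aif1, the calcium-binding protein IBA1, was below the filter with a mean of 3.46, and read 4.36 on the first-set normoxic WT array.

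On the probe sets used, Spi1 and Vav1 did not move with the rest. Spi1 read 4.48 to 4.86 on the 8 arrays (-0.02 ± 0.10, adjusted p = 0.968), and its 1 probe set was near the filter of 4.17. Vav1, a guanine nucleotide exchange factor of blood cells, read 5.17 to 5.58 (-0.02 ± 0.10, adjusted p = 0.968). Vav1 carries the same motif close to its gene start as Ctss and Pf4, as printed above. A link between motif and level was not tested. A dimmer Vav1 probe set with a mean of 3.17 was lower in KO in 4 of 4 pairs, with a mean difference of -0.38.

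Of the 38 genes, 19 had further probe sets, 37 in all. Of these, 12 were lower in KO in 4 of 4 pairs. Counting only the 16 whose mean was above the filter, 9 were.

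**Figure D2:**
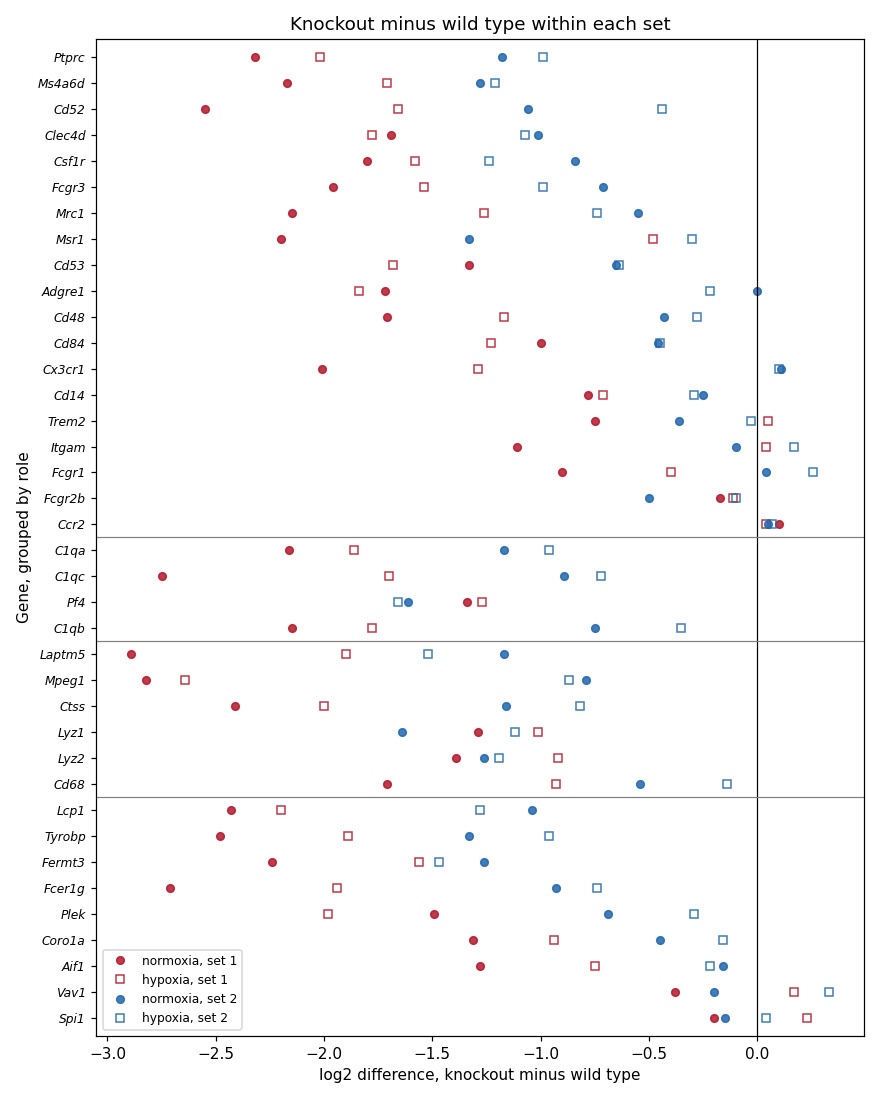
KO minus WT log2 difference of each of the 38 genes (rows, grouped by role) in the 4 same-set pairs, with filled circles for normoxia, open squares for hypoxia, red for the first set and blue for the second. Points lie left of 0 in all 4 pairs for 30 genes, and Pf4 is a gene whose blue points lie left of its red ones (-1.61 and -1.66 against -1.34 and -1.27).

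The second comparison asked whether hypoxia alters these genes. In WT cells, 28 of the 38 genes read lower in hypoxia than in normoxia in both sets, against 37.5% of all genes tested. In KO cells 13 did, against 32.6%. The WT differences were small, with medians of -0.42 (first set) and -0.20 (second set), beside -0.01 and -0.02 for all genes tested. The KO medians were 0.01 and -0.03.

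In WT cells 3 of the 38 genes were called lower in hypoxia, against 8.85% of all genes tested (16.4% in either direction). Msr1, the class A scavenger receptor, read 7.83 and 6.29 in normoxic WT and 5.57 and 5.54 in hypoxic WT. In KO it read 5.63 and 4.96 in normoxia and 5.09 and 5.24 in hypoxia. The high normoxic WT arrays, the first-set one above all, thus made the difference of -1.51 ± 0.35 (2.84-fold, adjusted p = 0.0238), which was -0.83 without first-set WT in normoxia. The KO difference of Msr1 over both conditions was not called in limma (-1.08 ± 0.25, adjusted p = 0.18). A further Msr1 probe set, with a mean of 5.39, was also lower in KO in 4 of 4 pairs, with a mean difference of -0.54. Another, with a mean of 4.88, was lower in 2 of 4 (-0.40), and the dimmest, with a mean of 3.19, in 2 of 4 (0.03).

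Lyz1 (-0.53 ± 0.10, adjusted p = 0.012) and Lyz2 (-0.50 ± 0.10, adjusted p = 0.0146), which may read the same signal, made up the calls in WT. None of the 38 was called without first-set WT in hypoxia, and 1 without first-set WT in normoxia. In KO none was called by limma, against 10.1% of all genes tested (5.13% lower and 4.98% higher). Of the 38, 1 had an unadjusted p under 0.05, against 3608 of the 13647 genes tested. Cd14 was that gene (0.44 ± 0.18, adjusted p = 0.161). The other 5 of largest size in KO were Lcp1 (-0.47), Fermt3 (-0.42), Ctss (0.41), Ptprc (-0.38) and Csf1r (-0.31), each with an adjusted p of 0.258 to 0.492.

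Over both genotypes 5 of the 38 were called, 4 lower and 1 higher, against 28.7% of all genes tested (15.2% lower and 13.6% higher). Msr1 (-0.82 ± 0.25), Fermt3 (-0.53 ± 0.15), Lyz2 (-0.36 ± 0.07) and Lyz1 (-0.33 ± 0.07) were lower in hypoxia. Cd14 was higher by 0.43 ± 0.13 (adjusted p = 0.0344) and rose in all 4 pairs, by 0.25 to 0.60. Leaving out 1 array left 2 to 5 called. The count fell to 2 without first-set WT in hypoxia or second-set KO in normoxia, and to 3 without first-set WT in normoxia, first-set KO in hypoxia, second-set WT in hypoxia or second-set KO in hypoxia.

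The hypoxia response of KO minus that of WT was called for none of the 38 and for 0.0% of all genes tested in the limma fit. Unadjusted, 4 of the 38 and 329 of all genes had a p under 0.05. The 6 largest were Msr1 (1.38), Cd52 (0.76), C1qc (0.61), Cd68 (0.59), Trem2 (0.57) and Vav1 (0.54), and the median over the tested ones of the 38 was 0.27, beside 0.03 for all genes. The larger count of lower genes in WT than in KO hypoxia therefore does not show that the response differed.

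The ratio of 3′ to 5′ signal of the Actb and Gapdh control probe sets, a measure of RNA quality, was also higher in hypoxia. It rose by 0.10 to 0.17 on the log2 scale for Actb and by 0.04 to 0.33 for Gapdh in the 4 pairs. Between KO and WT it differed by -0.10 to 0.00 and by -0.15 to 0.03. The ratio also differed by set. For Actb it was 0.53 to 0.73 on the first-set arrays and 0.31 to 0.47 on the second-set arrays. For Gapdh it was 0.33 to 0.52 and 0.14 to 0.47, and in hypoxic KO it was higher in the second set (0.44 against 0.37). Its part in the results was not tested.

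**Figure D3:**
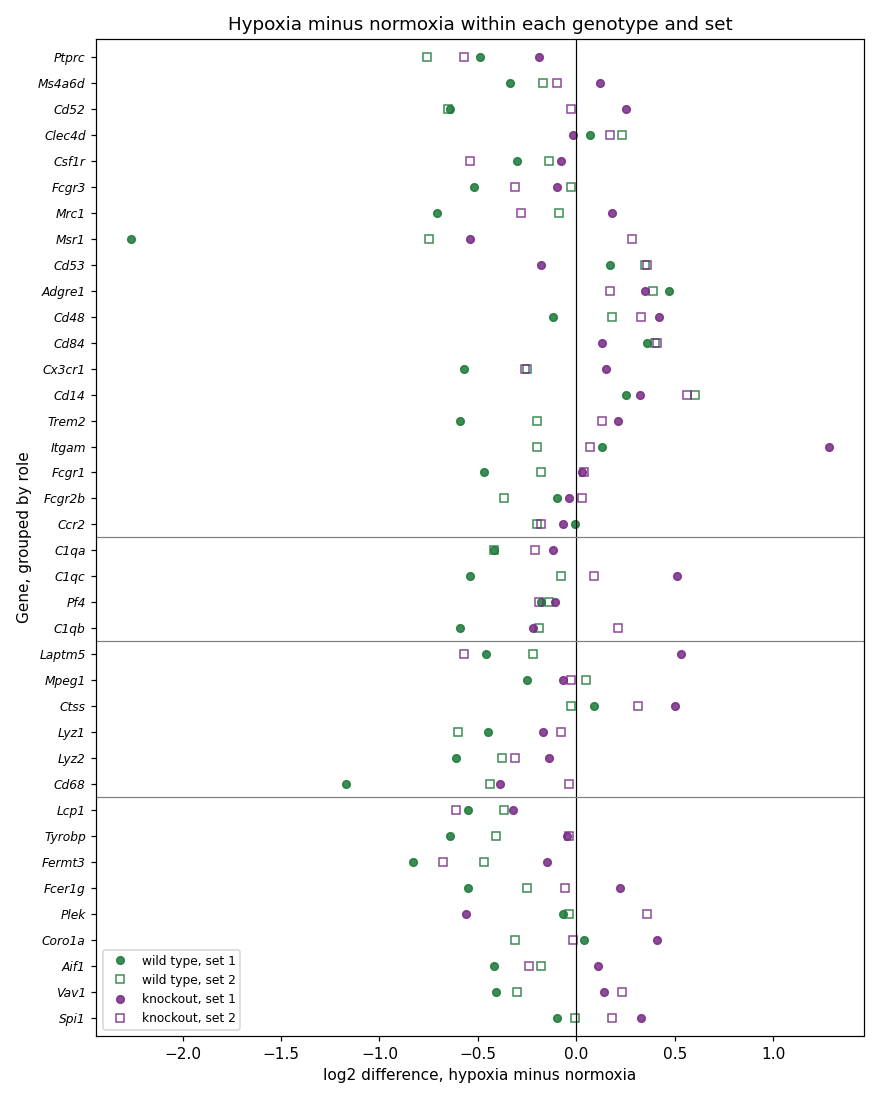
Hypoxia minus normoxia log2 difference of each of the 38 genes (rows, grouped by role), with filled circles for the first set, open squares for the second, green for WT and purple for KO. Most green points lie left of 0, with Msr1 farthest at -2.26 in first-set WT, while the purple points lie on both sides.

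The third comparison was between the sets. Of the 38, 22 were lower in the second set in all 4 groups, against 25.2% of all genes tested. In the fit 22 were called lower and none higher, where 46.1% of all genes tested were called, 20.7% lower and 25.4% higher. Lyz1 (-1.44 ± 0.07), Pf4 (-1.43 ± 0.09), Laptm5 (-1.39 ± 0.24), Clec4d (-1.28 ± 0.15), Csf1r (-1.27 ± 0.14) and C1qa (-1.26 ± 0.19) had the largest differences. Leaving out 1 array left 14 to 23 called, with 14 without either of the normoxic WT arrays.

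By role, the called ones were 9 of the 19 receptors, all 4 complement and secreted genes, 5 of the 6 lysosomal and antimicrobial genes and 4 of the 9 signalling genes. Cd53 differed between the sets by -0.24 and -0.06 in WT, and in KO it read higher in the second set by 0.44 and 0.98. Coro1a was alike, with -0.05 and -0.40 in WT and 0.81 and 0.38 in KO.

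The fall from the first to the second set was larger in WT than in KO cells for most of these genes. Its median over the 38 was -1.29 in normoxic and -1.08 in hypoxic WT, and -0.19 and -0.31 in KO. A fit with a separate set difference for each genotype called 12 of the 38, all with the larger fall in WT, against 0.74% of all genes tested called in that direction (0.931% in the other and 1.67% in either). They are Adgre1, C1qa, C1qb, C1qc, Cd52, Ctss, Cx3cr1, Fcer1g, Lcp1, Mpeg1, Ptprc and Tyrobp. Mpeg1 differed between the sets by -2.13 and -1.83 in WT and by -0.10 and -0.06 in KO, the widest gap (1.90 ± 0.18, adjusted p = 0.00136). This fit has 2 residual degrees of freedom, and none of the 12 was called in any of the 8 fits without 1 array. If the normoxic and hypoxic arrays of a genotype and set share a preparation, each combination of genotype and set has only 1.

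Lyz1, Lyz2 and Pf4 did otherwise and fell about as far in KO as in WT. Lyz2 differed by -1.26 and -1.03 in WT and by -1.13 and -1.30 in KO, and the gap between genotypes was -0.07 ± 0.14 (adjusted p = 0.896). For Pf4 it was -0.33 ± 0.15 (adjusted p = 0.413) and for Lyz1 -0.23 ± 0.12 (adjusted p = 0.488).

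**Figure D4:**
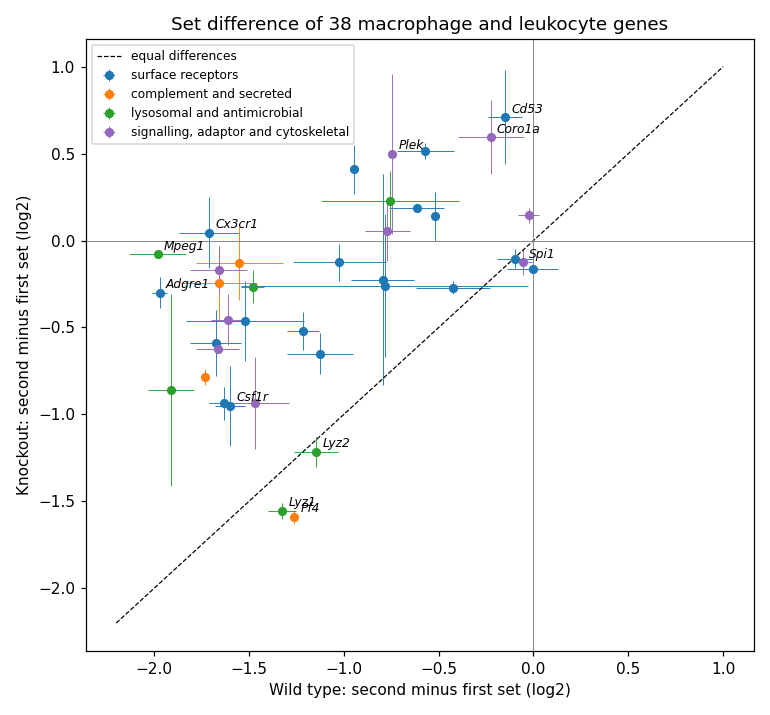
Second minus first set log2 difference in WT (horizontal) against KO (vertical) for the 38 genes, coloured by role. Points are means over normoxia and hypoxia, bars reach the 2 values, and the dashed line marks equal differences. Most points lie above the line, as Mpeg1 and Cx3cr1 do, while Lyz1, Lyz2 and Pf4 lie on or below it.

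Other genes of phagocytes behaved in part like the 38. Of 20 genes of phagocyte signalling and the NADPH oxidase, 7 were lower in KO in 4 of 4 pairs, against 10.7% of all genes tested. None of the 17 tested was called by genotype. Over both conditions 6 of the 17 had an unadjusted p under 0.05 in limma, against 1396 of the 13647 genes tested. The mean over the 20 was 4.95 to 5.60 on the WT arrays and 4.86 to 4.97 on the KO arrays. Cybb, the catalytic subunit of the oxidase, read 6.07, 5.23, 4.31 and 4.04 in WT and 3.92, 3.48, 3.48 and 3.38 in KO. Ncf1, its p47 subunit, read 6.3, 6.37, 5.05 and 5.07 in WT and 4.81, 4.96, 4.56 and 4.2 in KO. Cyba, the subunit that many cell types express, read 9.89 to 10.82 over all arrays and was called lower in hypoxia over both genotypes (-0.43 ± 0.06, adjusted p = 0.0015).

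Among the ligands and growth factors, Csf1, the growth factor for macrophages, read 11.76, 11.41, 12.69 and 12.38 in WT and 12.25, 11.87, 12.56 and 12.16 in KO. Its KO minus WT difference was 0.49 and 0.46 in the first set and -0.13 and -0.22 in the second. None of 5 tested genes of this list was called by genotype. Over both conditions 2 had an unadjusted p under 0.05 in limma, against 1396 of the 13647 genes tested. In the fit with a genotype by set term 1 of the 5 was called, with a negative value, against 0.931% of all genes tested. Kitl, the ligand of the receptor KIT, read 9.5, 9.89, 8.94 and 9.03 in WT and 9.2, 9.41, 8.49 and 8.48 in KO, lower in 4 of 4 pairs (adjusted p = 0.0777 in limma over both conditions). Csf2rb, a receptor chain of blood cells, read 5.23, 5.09, 4.5 and 4.97 in WT and 4.22, 4.16, 4.32 and 4.08 in KO, without overlap.

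Of 9 tested macrophage transcription factors, none was called by genotype. Over both conditions 3 had an unadjusted p under 0.05 in limma, against 1396 of the 13647 genes tested. Id2, Cebpb, Maf and Runx1, which fibroblasts express as well, read 8.91 or more on all arrays. Those 4 were the ones called higher in hypoxia over both genotypes, against 13.6% of all genes tested. None of the tested tissue-resident macrophage genes (8), macrophage activation genes (12), MHC class II genes (5) or stromal complement genes (6) was called by genotype. Unadjusted, 2, 5, 2 and 0 of them had a p under 0.05 over both conditions in limma, against 1396 of the 13647 genes tested. Of the 2 tissue-resident genes, Cbr2, a carbonyl reductase, read 6.32, 5.87, 6.0 and 5.06 in WT and 7.88, 7.59, 6.33 and 5.67 in KO, higher in 4 of 4 pairs (adjusted p = 0.162 in limma). Gas6, a ligand of TAM receptors, read 8.84, 8.4, 10.96 and 10.13 in WT and 9.53, 9.22, 10.93 and 10.64 in KO, higher in 3 of 4 pairs (adjusted p = 0.18). H2-Ab1, an MHC class II chain, rose with hypoxia by 1.70 (adjusted p = 9.52e-05). It was also lower in KO in 4 of 4 pairs (-0.53 in limma over both conditions, adjusted p = 0.157). Ciita, another gene of the MHC class II list, went the other way and was higher in KO in 4 of 4 pairs, by 0.06 to 0.58. Ccl9, a chemokine of the activation list, read 6.18 to 8.18 in WT and 6.09 to 7.16 in KO, lower in 4 of 4 pairs. Ccl7, another chemokine of that list, differed between KO and WT by 0.25 and 0.24 in the first set and by 0.0 and 0.27 in the second. Over both conditions 6 of the 12 tested activation genes were lower in KO, and their median difference was 0.02.

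Markers of some other cell types moved with the 38 genes. Among 7 neutrophil genes, the mean was 4.89 and 4.90 in first-set WT and 4.05 to 4.25 on the other 6 arrays. S100a8 read 6.36 and 6.15 in first-set WT and 3.40 to 3.95 elsewhere, and S100a9 5.03 and 5.36 against 2.89 to 3.47. Both are on the neutrophil list, and macrophages and monocytes express them too. The others of the list, Mpo, Elane, Camp, Ltf and Ngp, read 3.97 to 4.88. Ngp read 4.82 and 4.88 in first-set WT and 4.40 to 4.71 elsewhere. Ltf was lower in KO in 4 of 4 pairs, Ngp and Camp in 3 of 4, and Mpo and Elane in 2 of 4. Which cells gave the S100a8 and S100a9 signal was not tested.

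Some skeletal muscle genes were high on the same pair of arrays. Myog, the transcription factor myogenin, read 8.04 and 7.96 in first-set WT and 3.48 to 4.33 elsewhere, and Tnnt3, a troponin, read 5.87 and 5.65 against 3.44 to 4.01. Other genes of the list were not: Acta1, skeletal muscle actin, read 9.65 and 9.21 in first-set WT and 10.9 to 11.54 in the second set, and Des, the filament protein desmin, read 6.61 to 7.29 on all arrays. The mean over 6 muscle genes was 6.78 and 6.67 in first-set WT and 5.26 to 6.01 elsewhere, with no gene lower in KO in 4 of 4 pairs. First-set WT arrays thus stood apart for some genes of other cell types as well as for macrophage genes, and the part of this in the results was not tested. None of the neutrophil or muscle genes was called by genotype in limma. Unadjusted, 1 and 2 of them had a p under 0.05 over both conditions, against 1396 of the 13647 genes tested. In limma fits of each set alone (4 arrays each), chosen after the data were seen, 28 of the 38 were called lower in KO in the first set, against 1.72% of all genes tested. In the second set none of the 38 and none of all genes tested was called, and 24 of the 38 had an unadjusted p under 0.05, against 7.77% of all genes tested. If the normoxic and hypoxic arrays share a preparation, each of these fits compares 1 KO with 1 WT preparation.

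The fibroblast markers also differed a little by genotype, with means of 11.45 to 11.63 in WT and 11.28 to 11.37 in KO. Pdgfra (-0.72 ± 0.07, adjusted p = 0.0111) and Dcn (-0.51 ± 0.06, adjusted p = 0.0225) were 2 of 12 called lower in KO over both conditions, against 0.198% of all genes tested. Lum, the proteoglycan lumican, read 9.69 and 9.0 in first-set WT, 7.89 and 7.68 in first-set KO and 5.46 to 6.44 in the second set. The means of the T and NK cell, B cell, mast cell, dendritic cell, erythroid and endothelial lists lay between 3.56 and 4.59 on all arrays, where the filter is 4.17. None of their genes, nor any of the osteoclast, epithelial or megakaryocyte and platelet lists, was called by genotype in limma. Of these lists, 1 dendritic cell gene and 1 epithelial gene had an unadjusted p under 0.05 over both conditions, against 1396 of the 13647 genes tested.

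Of the platelet genes, Ppbp, a chemokine that lies beside Pf4 in its cluster, went the other way in the sets. It read 7.08 and 6.69 in first-set WT, 9.26 and 8.8 in first-set KO and 9.81 to 10.65 in the second set, while Pf4 was lower in KO and in the second set. Itga2b, a platelet integrin chain, read 6.85 to 7.16 on all arrays. Itgb3, another gene of the list, was lower in KO in 4 of 4 pairs (-0.49, -0.28, -0.03 and -0.06), the direction of Pf4. Unlike Pf4, it read higher in the second set (8.55 to 8.70, against 7.44 to 8.16 in the first). Gp1bb and Gp9 were each lower in KO in 2 of 4 pairs. The cell source of the Pf4 signal was not tested.

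**Figure D5:**
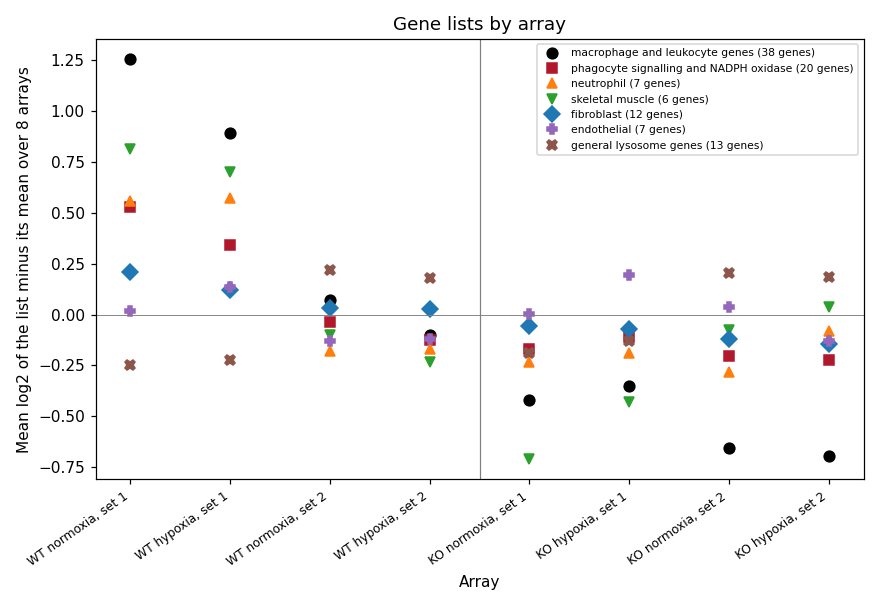
Mean log2 value of 7 gene lists on the 8 arrays, each minus the list's own mean over 8 arrays, with 1 symbol per list. The 38 macrophage and leukocyte genes, the phagocyte, neutrophil and muscle lists are highest on the first-set WT arrays, the fibroblast list is slightly higher in WT, and the lysosome list follows the set.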

How the data were processed

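Gene expression was measured in 8 samples, each on its own one-colour Affymetrix array hybridised with biotin-labelled cRNA made from 5 ug of total RNA, per the labels' protocols. The authors' deposited values are log2 expression per probe set from RMA, per the submitters' processing notes, with no version. RMA subtracts background, brings arrays to a common distribution and summarizes probes, so a shift shared by all transcripts would not show. Joint normalization of all arrays is not stated in the sources used here. No further normalization was applied. Array medians were 5.01 to 5.12. The number of arrays limits the precision.

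Probe sets with exactly 1 gene symbol (34945 of 45037) were used, with symbols updated through RefSeq identifiers (assembly GRCm38.p6, 34741 matched). Each gene took its probe set of highest mean. Genes with a mean under the 25th percentile (4.17) were left out of the tests, leaving 13647 of 18193, with 35 of the 38. Of these genes, Cd48, Itgam and Aif1 were described only.

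R 4.3.3 and limma 3.58.1 fitted group means with an added set effect (lmFit, eBayes with a trend, 3 residual degrees of freedom), with Benjamini-Hochberg adjustment over all genes tested. All p-values are two-sided. A second fit added the genotype by set term. The code was tested on simulated data. The labels' set numbers were taken to pair arrays, because second-minus-first differences correlated at 0.71 to 0.85 in the 6 pairs of groups.

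All 38 genes are named. In each comparison, values are given for the genes called, or else for up to 6 of largest size. Of each further list up to 4 genes of smallest adjusted p are named, and neutrophil, muscle, fibroblast and platelet markers after their values were seen. The genes, lists and roles were chosen with earlier results of these data known. Alternatives were no block, a random block, other filters, the probe set of highest variance, repeated quantile normalization, no trend, averaged arrays, and each array left out.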

Additional observations from a re-analysis of the deposited data

Results flagged for a closer look

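For 12 genes the second-minus-first set difference was called as different between genotypes in the limma fit with a genotype by set term, which has 2 residual degrees of freedom. If the 2 arrays of a genotype and set share a preparation, this fit has no replicate preparations. The values are the difference in KO minus that in WT, on the log2 scale, and all are positive, so that the first-set WT arrays were high relative to the other 3 combinations. Among surface receptors they were 1.75 for Cx3cr1, 1.67 for Adgre1, 1.35 for Cd52 and 1.08 for Ptprc. For the C1q chains they were 0.94 for C1qa, 1.42 for C1qb and 1.42 for C1qc. For the lysosomal genes they were 1.90 for Mpeg1 and 1.21 for Ctss. For the adaptor and actin genes they were 1.49 for Fcer1g, 1.16 for Lcp1 and 1.04 for Tyrobp.

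In the 8 fits without 1 array each of these 12 kept its positive sign and none was called, with values from 0.90 for C1qa and Ptprc up to 2.05 for Mpeg1. The same term was 4.42 for Myog, a muscle gene, and 2.39 for S100a8. Groups of 2 arrays are too small for a search for single outlying arrays.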

How the results depend on the processing

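No called result that was followed changed sign under the alternatives run. Between the sets, only the 6 called genes of largest difference were followed. Over all alternatives, 322 values of the single genes followed kept their side of the threshold while 329 lost it. Without the replicate block, 0 of the 38 genes were called for KO against WT in normoxia, in hypoxia and over both (0% of all genes tested in each), and 0 for hypoxia in WT (0.147%) and over both genotypes (0.725%). With the set as a random block the counts were 0, 0, 0, 1 and 0, against 0%, 0%, 0%, 8.3% and 20.8%. A 50th percentile filter left 6 for KO against WT over both (0.275%), 3 for hypoxia over both (41.9%) and 9 for the sets (60.4%). Without a variance trend 0 were called for KO against WT in hypoxia (0%) and 3 over both (0.022%). Averaging the arrays of a genotype and set left 0 for KO against WT (0%) and 11 for the sets (29.5%). In the first set alone 28 were called for KO against WT (3.54% of all genes tested, in either direction) and 0 for hypoxia (17.1%), and in the second set alone 0 (0%) and 3 (16.9%). The cause of these shifts was not tested beyond the smaller number of arrays or genes in some fits. Leaving out 1 array gave 0 to 3 calls for KO against WT in normoxia, 0 to 5 in hypoxia and 3 to 17 over both, 0 to 4 for hypoxia in WT, 2 to 5 for hypoxia over both, 14 to 23 for the sets and 0 for the genotype by set term. Detection calls were not used here, so genes near the filter, such as Spi1, Cd84, Fcgr1, Mrc1 and Cybb, may lie at background on some or all arrays.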
